A study of Mus musculus with 3 samples.

Results

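Sox1, Sox2 and Sox21 belong to the SoxB group of HMG-box transcription factors, and the peaks of 2 chromatin proteins, Zrf1 and Ring1B, were described here in a fixed window on the chromosome of each gene. A peak was a member if it overlapped one of these windows by at least 1 bp. In mm9 the windows ran from 12350000 to 12450000 on chromosome 8 (Sox1), from 34500000 to 34600000 on chromosome 3 (Sox2) and from 118580000 to 118690000 on chromosome 14 (Sox21). This rule gave 17 peaks of the 23437 in both lists, namely 4 of 11647 Zrf1 peaks and 13 of 11790 Ring1B peaks. All 17 lay wholly inside their window.

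The peaks come from chromatin immunoprecipitation followed by sequencing (ChIP-seq) in neural progenitor cells that had been derived in culture from E14TG2a mouse embryonic stem cells and kept in N2 medium with EGF and FGF2. There was 1 Zrf1 library, 1 Ring1B library and 1 library made with rabbit IgG, all from cells described in the same way, with no treatment or genotype that differed between them. The study asked how the DNA binding profiles of Zrf1 and Ring1B compare in these cells, and the IgG library is not analysed here. With 1 library per antibody and no replicate, no value below has an error between samples and none was tested. The lists give intervals alone, so the depth is unknown and a missing peak does not show missing binding. Expression was not measured here, so the labelled cell type could not be checked against its markers.

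SoxB proteins bind DNA through their HMG box. Sox1 and Sox2 are SoxB1 factors, transcriptional activators that keep neural cells in the progenitor state, and Sox2 is also a core factor of embryonic stem cells. Sox21 is a SoxB2 factor, a repressor that opposes SoxB1 activity and favours neuronal differentiation. Ring1B (gene Rnf2) is the catalytic subunit of Polycomb repressive complex 1, which ubiquitylates histone H2A and is known to occupy CpG-rich promoters of developmental genes. Zrf1 (gene Dnajc2) is a chaperone-related protein that binds ubiquitylated H2A and is known to displace Polycomb proteins from chromatin when genes are switched on. In the RefSeq gene table of GRCm38.p6, Sox1, Sox2 and Sox21 lie on the same chromosomes as their windows. There Sox1 overlaps the long noncoding RNA gene Sox1ot, Sox2 overlaps Sox2ot, and Sox21 overlaps the noncoding gene Gm4675.

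Because Polycomb binding is known to go with CpG density, the 250 bases before the RefSeq start of each gene are shown, 5′ to 3′ on the strand of the gene, with every CpG in capitals. They are RefSeq sequences in GRCm38.p6, at chr8:12395269-12395518 (plus strand), chr3:34649745-34649994 (plus strand) and chr14:118237031-118237280 (minus strand). These positions are of another build than the peaks and cannot be set beside them, so whether a given peak covers a given start was not determined.
Sox1: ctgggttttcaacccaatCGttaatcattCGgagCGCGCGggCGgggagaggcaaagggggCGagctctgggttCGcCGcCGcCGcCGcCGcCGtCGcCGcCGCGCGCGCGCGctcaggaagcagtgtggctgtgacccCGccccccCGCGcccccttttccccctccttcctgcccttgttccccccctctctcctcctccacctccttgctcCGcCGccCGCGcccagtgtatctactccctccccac
Sox2: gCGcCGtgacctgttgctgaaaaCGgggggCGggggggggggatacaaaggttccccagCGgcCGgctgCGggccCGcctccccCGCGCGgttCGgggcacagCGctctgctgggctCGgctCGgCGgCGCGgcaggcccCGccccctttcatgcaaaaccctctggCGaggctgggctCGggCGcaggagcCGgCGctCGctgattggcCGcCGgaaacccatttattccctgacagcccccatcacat
Sox21: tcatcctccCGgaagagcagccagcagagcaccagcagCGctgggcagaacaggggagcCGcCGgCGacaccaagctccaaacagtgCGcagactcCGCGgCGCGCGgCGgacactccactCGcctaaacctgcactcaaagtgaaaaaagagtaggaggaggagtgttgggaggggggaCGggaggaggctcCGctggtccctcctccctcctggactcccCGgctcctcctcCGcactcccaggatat

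The SoxB promoters held more CpG than the median RefSeq promoter, with Sox1 and Sox2 above Sox21. The Sox1 sequence held 29 CpG in 250 bases, a number reached by 6.78% of the 32851 promoter entries of the table. The Sox2 sequence held 27, reached by 8.56%, and the Sox21 sequence held 17, reached by 23.5%. The median over all entries was 6. Motifs chosen after the sequences had been seen, 4 in all, were searched on both strands. The GC box GGGCGG, which Sp-family factors bind, occurred 3 times before Sox1, 2 times before Sox2 and not before Sox21, and 32.7% of all entries held it. The box CCAAT, which the factor NF-Y binds, occurred once before Sox1 and once before Sox2, and 33.8% of entries held it. ACAAT, a form of the SOX core (27.7% of entries), was not found in these 250 bases before any of the 3 genes. Other forms of that core were not searched, among them ACAAAG, which the Sox2 sequence holds. Its share over all entries was not computed. The octamer ATGCAAAT, bound by POU factors (1.6% of entries), was not found in this exact form before any of the 3 genes either. Near matches to it were not searched.

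Ring1B had more peaks than Zrf1 in the Sox1 and Sox2 windows and as many in the Sox21 window, and covered more sequence in each of the 3. Apart from 1 at Sox2, the Zrf1 peaks did not overlap Ring1B. Most Zrf1 peaks of the whole list did not either, since 17.0% of them overlapped a Ring1B peak. Zrf1 had 1 peak in the Sox1 window, 1 in the Sox2 window and 2 in the Sox21 window. Ring1B had 6 peaks in the Sox1 window, 5 in the Sox2 window and 2 in the Sox21 window. Zrf1 peaks covered 3.07 kb of the 310.0 kb in all, or 0.991%, against 0.403% of chromosomes 1 to 19 and X. Ring1B peaks covered 26.8 kb, or 8.63%, against 0.679% of those chromosomes. Coverage by Zrf1 was thus 2.46-fold and coverage by Ring1B 12.7-fold its genome average. The windows differed, with 0.482%, 1.10% and 1.36% under Zrf1 at Sox1, Sox2 and Sox21. Under Ring1B these shares were 13.2%, 6.81% and 6.11%. Both fold values are descriptions of windows chosen by gene, with earlier results of these data known.

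**Figure D1:**
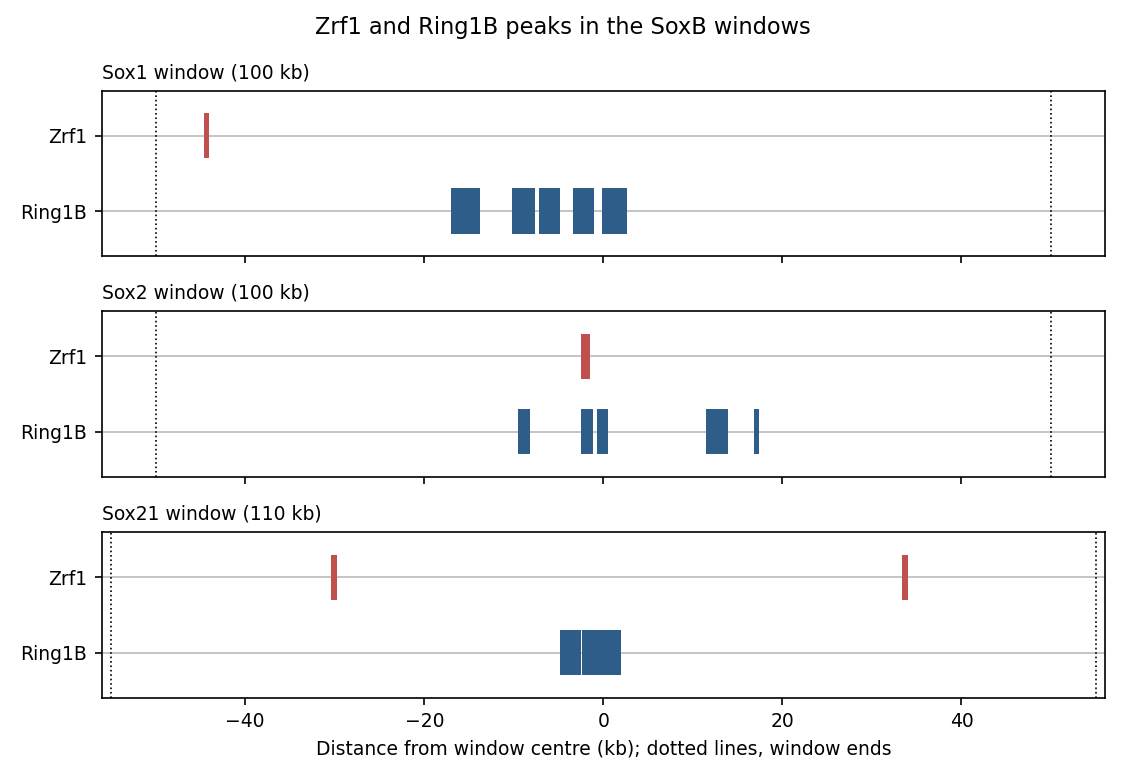
Position of each Zrf1 peak (red, upper track) and Ring1B peak (blue, lower track) in the Sox1, Sox2 and Sox21 windows, as distance from the window centre in kb, with bars drawn to the width of the peak. Zrf1 and Ring1B coincide at Sox2 only, and Ring1B forms 6 peaks at Sox1, of which 2 are 55 bp apart and look joined, 5 at Sox2 and 2 at Sox21.

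Set beside windows of the same length laid end to end across the genome, the Sox1 and Sox2 windows had far more Ring1B than most, and a number of Zrf1 peaks that many windows reached. Such windows are placed without regard to genes, and most hold no peak. The SoxB windows were chosen by gene and with earlier results of these data known. At least 1 Zrf1 peak, as in the Sox1 and the Sox2 window, was found in 27.4% of 26378 windows of 100 kb, and at least 1 Ring1B peak in 26.5%. At least 6 Ring1B peaks, as at Sox1, were found in 0.519%, and at least 5, as at Sox2, in 0.989%. By bases under Ring1B, the 13.2 kb at Sox1 were reached by 0.231% of windows and the 6.81 kb at Sox2 by 1.36%. By bases under Zrf1, the 0.482 kb at Sox1 were reached by 26.9% and the 1.10 kb at Sox2 by 12.7%. In the Sox21 window the count of Ring1B peaks was common and the sequence under them was not. Of 23980 windows of 110 kb, 29.2% held at least 1 Zrf1 peak and 28.0% at least 1 Ring1B peak. At least 2 Zrf1 peaks were found in 11.3% and at least 2 Ring1B peaks in 11.5%. The 1.49 kb under Zrf1 were reached by 9.83% of them and the 6.72 kb under Ring1B by 1.70%.

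**Figure D2:**
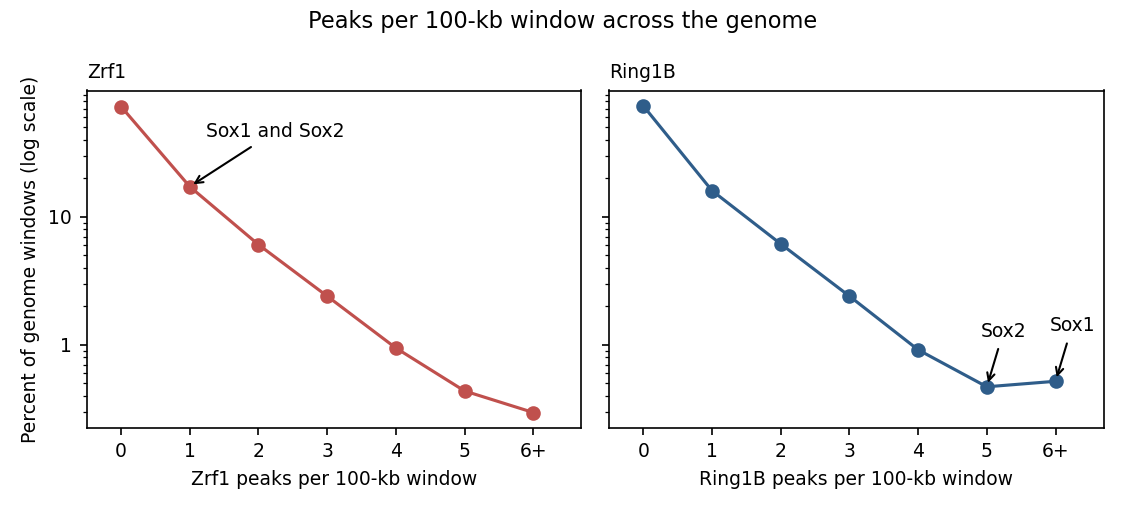
Percent of 26378 genome windows of 100 kb (log scale) by the number of Zrf1 peaks (left) and Ring1B peaks (right) they hold, where 6+ stands for 6 or more. Arrows mark the counts in the Sox1 and Sox2 windows, which hold 1 Zrf1 peak each, a common count, and 6 and 5 Ring1B peaks, which few windows reach.

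At Sox1, the SoxB1 gene whose expression marks the neural plate, Ring1B peaks lay in a single group. The 6 peaks lay between 12382992 and 12402694 on chromosome 8, a span of 19.7 kb of which 67.2% was under a peak. From the lower coordinate upward they measured 3270, 2522, 1262, 1098, 2274 and 2803 bp. The outer peaks were thus the wide ones and the narrow pair lay within the run. The gaps between them were 3572, 414, 55, 1454 and 978 bp. A gap of 55 bp or less occurred at 1.67% of the 11770 gaps between neighbouring Ring1B peaks of the list, so the third and the fourth peak nearly touched. Joined over gaps of at most 5 kb, the 6 peaks made 1 run, and 39 of the 10054 Ring1B runs so formed (0.388%) had as many peaks. With gaps of at most 2 kb the run split into 2, of 1 and 5 peaks. The run joined over 5 kb ranked 39th of all runs by bases under Ring1B peaks, with 13.2 kb.

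The only Zrf1 peak in the Sox1 window lay far from this run. It ran from 12355417 to 12355899, and its centre lay at -44.3 kb from the window centre. The nearest Ring1B peak was 27.1 kb away. At 482 bp it was among the narrowest of its list, where 1.47% of peaks were narrower. Its distance to Ring1B was not unusual, since 53.2% of all Zrf1 peaks were at least as far from a Ring1B peak. No Zrf1 peak lay above it for 185 kb, so none fell on the Ring1B run.

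At Sox2, the SoxB1 factor shared by stem cells and neural progenitors, Ring1B peaks were spread out and narrower. They spanned 26.9 kb, from 34540479 to 34567365 on chromosome 3, of which 25.3% was under a peak, against 67.2% in the Sox1 run. In order their widths were 1280, 1346, 1217, 2392 and 577 bp, and the gaps between them 5710, 465, 11020 and 2879 bp. They fell into 3 runs when joined over gaps of at most 5 kb, with 1, 2 and 2 peaks. The second and the third peak, next to the window centre, lay 465 bp apart and together covered 2.56 kb. The fourth peak, centred 12.7 kb above the window centre, was the widest of the window at 2392 bp, and 90.7% of the Ring1B list was narrower. The fifth was among the narrowest of the whole list, where 0.772% of peaks were narrower than its 577 bp.

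The Sox2 window held the only overlap of Zrf1 and Ring1B among the 17 peaks. The Zrf1 peak ran from 34547460 to 34548558 (1098 bp), and the second Ring1B peak from 34547469 to 34548815 (1346 bp). They shared 1089 bp, which is 99.2% of the Zrf1 peak and 80.9% of the Ring1B peak. Over all 1995 overlapping pairs of the lists the medians were 97.1% and 75.2%, so the Sox2 pair was aligned about as closely as a usual pair. Its starts differed by 9 bp, against a median of 180.0 bp, and 4.66% of pairs had starts as close. Its ends were farther apart, by 257 bp. Its centres lay 133 bp apart, against a median of 165 bp. The overlapping Zrf1 peak was the widest of the 4 Zrf1 peaks in the SoxB windows, and 79.6% of the Zrf1 list was narrower. The third Ring1B peak began 722 bp beyond the end of this Zrf1 peak, and the other Ring1B peaks lay 5.70, 13.0 and 18.2 kb from it.

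Counted over the 3 windows, 1 of 4 Zrf1 peaks overlapped Ring1B, beside 17.0% of the whole Zrf1 list. For Ring1B, 1 of 13 peaks overlapped Zrf1, beside 16.6% of the whole Ring1B list. With counts of 1, no difference from these shares can be read. Peaks of both proteins, as in the Sox1 and Sox2 windows, were held by 14.6% of genome windows of 100 kb, and 43.0% of those held an overlapping pair. For windows of 110 kb, as at Sox21, these shares were 16.2% and 42.2%. Of the 261 windows of 100 kb with at least 5 Ring1B peaks, 78.2% held a Zrf1 peak and 60.5% an overlapping pair. The Sox2 window was of that majority, and the Sox1 window held a Zrf1 peak but no overlapping pair.

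At Sox21, the SoxB2 repressor, Ring1B gave the widest peak of the 3 windows. Its 2 peaks, 118630149 to 118632510 (2361 bp) and 118632608 to 118636968 (4360 bp), were 98 bp apart. Together they covered 98.6% of a span of 6.82 kb centred near the middle of the window. The wider peak ranked 180th of the 11790 Ring1B peaks, with 98.5% of the list narrower, and 90.2% of the list was narrower than the other. A gap of 98 bp or less was found at 2.74% of Ring1B gaps, and the 2 intervals would count as 1 if such gaps were closed. The Zrf1 peaks of the window stood on both sides of this block. One ran from 118604527 to 118605287 (760 bp), 24.9 kb below it, and the other from 118668317 to 118669050 (733 bp), 31.3 kb above it. Neither width stood out, with 44.7% and 41.0% of the Zrf1 list narrower, and 55.1% and 49.97% of Zrf1 peaks were at least as far from Ring1B.

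The width of Ring1B peaks varied between the genes. The median over the 13 Ring1B peaks was 2274 bp, beside 1324 bp over the whole list, and 8 of 13 were wider than the list median. At least 90% of the list was narrower than 6 of them, 3 at Sox1, 1 at Sox2 and 2 at Sox21. Medians by gene were 2398 bp at Sox1, 1280 bp at Sox2 and 3360 bp at Sox21. Both Sox21 peaks were wider than 4 of the 5 Sox2 peaks, and the widest Sox2 peak lay between them. The 4 Zrf1 peaks had a median of 746.5 bp, beside 796 bp over the whole Zrf1 list. Of these 4, only the Sox2 peak was wider than that median.

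**Figure D3:**
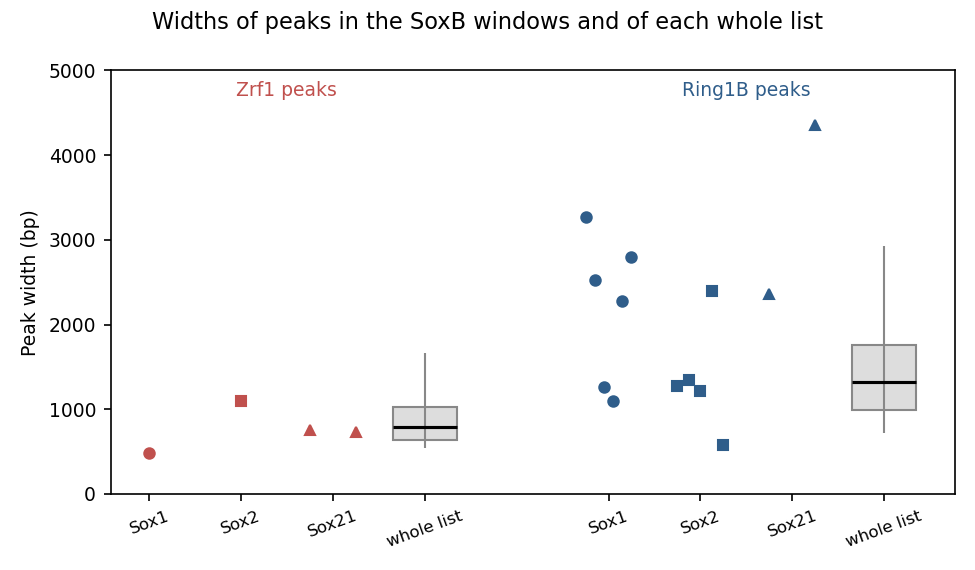
Width in bp of each Zrf1 peak (red) and Ring1B peak (blue) in the Sox1, Sox2 and Sox21 windows, left of the whole list of the same protein (box, quartiles with the median; line, 5th to 95th percentile). The Ring1B peaks at Sox1 and Sox21 reach 3270 and 4360 bp, past the 95th percentile of 2924 bp, while all 4 Zrf1 peaks lie below the 90th percentile of their list, 1389 bp.

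The SoxB windows held Ring1B at a higher density than the sequence around them. In the 500 kb on either side there were 6 Ring1B peaks around Sox1, 1 around Sox2 and 5 around Sox21. The widest of these flanking Ring1B peaks measured 1461, 603 and 1653 bp, below the widest inside each window. Per 100 kb there were 6 Ring1B peaks in the Sox1 window, against 0.6 in its flanks, 5 in the Sox2 window, against 0.1, and 1.82 in the Sox21 window, against 0.5. The genome average was 0.447, so the flanks of Sox1 and Sox21 stood near it and those of Sox2 below it. The value for the Sox21 window rests on 2 peaks 98 bp apart, which count as 1 when gaps up to 1 kb are merged. By bases, Ring1B peaks covered 6.11% of that window and 0.632% of its flanks. Of the 3 groups, that at Sox2 had the farthest neighbours on both sides, with the next Ring1B peak 622 kb below and 420 kb above it. Gaps that large made up 7.71% and 11.3% of the gaps in the Ring1B list, where the median gap was 60.4 kb. Below the Sox1 run the next Ring1B peak was 439 kb away, and above it 74.96 kb. Around the Sox21 block these distances were 93.0 and 199.5 kb.

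For Zrf1 the comparison of window and flanks rested on 1 or 2 peaks in each window. The windows held 1, 1 and 1.82 Zrf1 peaks per 100 kb at Sox1, Sox2 and Sox21, and the genome average was 0.441. Their flanks held 20 Zrf1 peaks around Sox1, 6 around Sox2 and 6 around Sox21, which is 2, 0.6 and 0.6 per 100 kb. By these values Zrf1 was denser around the Sox1 window than in it, and denser in the Sox2 and Sox21 windows than around them. In a window of 100 kb, 1 peak already gives 1 per 100 kb, so no difference between the genes can be read. At Sox21 the counts in the window were equal for both proteins. The neighbouring Zrf1 peaks of the Sox2 peak lay 194 kb below and 192 kb above it.

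**Figure D4:**
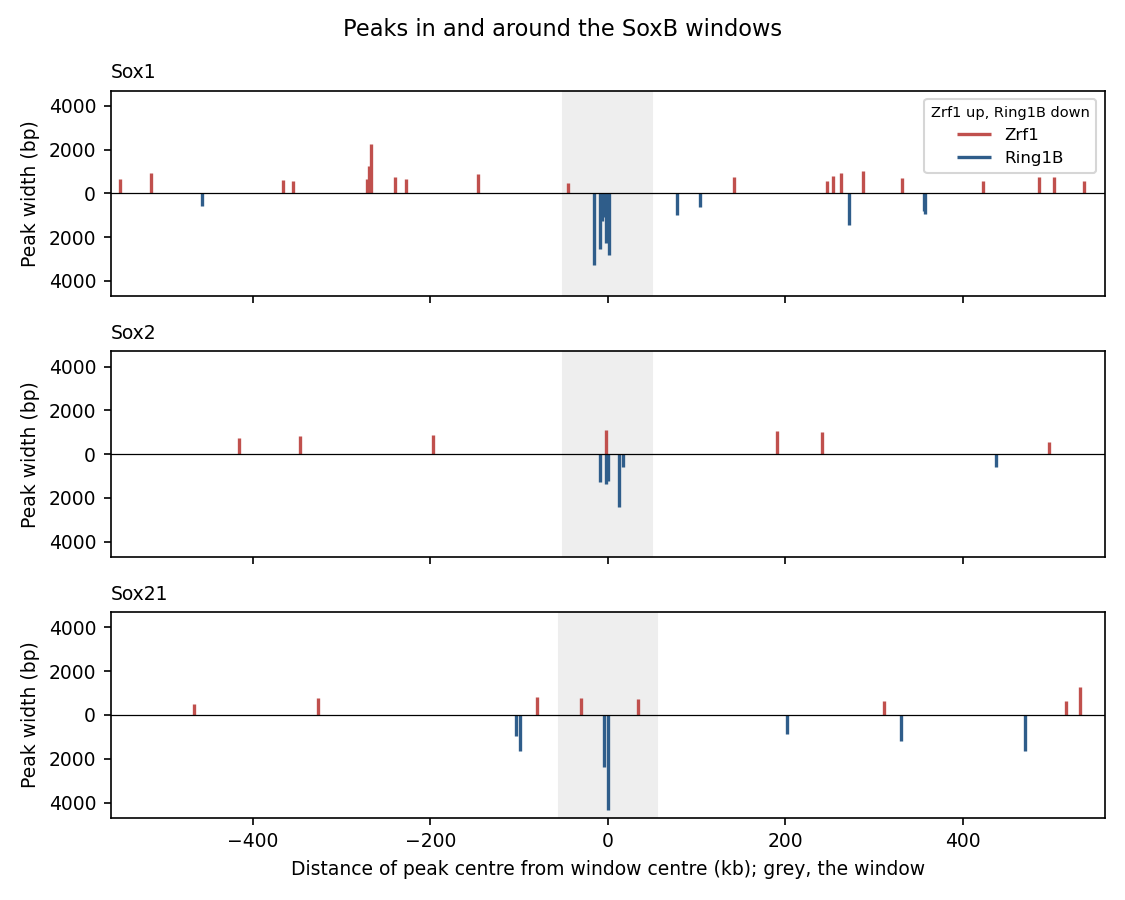
Width in bp of every Zrf1 peak (red, upward) and Ring1B peak (blue, downward) within 500 kb of the Sox1, Sox2 and Sox21 windows, by distance of the peak centre from the window centre in kb, with the window in grey. The flanks hold 6, 1 and 5 Ring1B peaks around Sox1, Sox2 and Sox21, none as wide as the widest in the window, and 20, 6 and 6 Zrf1 peaks.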

How the data were processed

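The authors deposited 2 lists of peaks, each with 3 columns and no header: chromosome, start and end (no score, height, p-value or gene name stands in them). The submitters' processing notes name Bowtie 0.12.7, a read aligner, MACS 1.4.2, a peak caller, and the build mm9. Which threshold and control the calls used is not given in the sources used here. A list belongs to the library whose labels alone carry its antibody. No interval passed the mm9 chromosome ends in GenomeInfoDb 1.38.1, and none of 1 list overlapped or touched another.

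Width was end minus start. Starts may count from 0 or from 1, a difference of 1 bp. Peaks were shared if they overlapped by at least 1 bp. Genome windows of 100 and 110 kb were laid end to end on chromosomes 1 to 19 and X. The windows follow the member definition, and the lists name no genes. Promoters and gene names came from RefSeq (GRCm38.p6), in which all 3 genes matched; coordinates were not converted between builds. All member peaks are accounted for; given in full are every Zrf1 peak, every overlapping pair and the widest Ring1B peak of each window, by a rule set together with the members. The members and this rule were chosen with earlier results of these data known. Overlaps were tested on simulated data and compared with bedtools 2.31.1. Python 3.11.15, NumPy 2.4.6, pandas 2.3.3, SciPy 1.17.1 and matplotlib 3.10.9 were used. Alternatives changed the window, the overlap rule, the peaks used and the gaps joined.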

Additional observations from a re-analysis of the deposited data

How the results depend on the processing

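Alternatives were computed for 23 values, and 49 of 69 alternative values stayed close to those reported (counts within 1.5 times, shares within their 95% exact binomial interval, widths equal or within 1 bp). The joining of peaks over other gaps and the counting of starts from 1 were chosen after seeing the data. Trimming the windows by 25 kb on either side left 0 Zrf1 peaks at Sox1 and 1 at Sox21, and extending them by 50 kb gave 4 Ring1B peaks at Sox21, since the windows then differ in length. Keeping only peaks of at least the median width left 0 Zrf1 peaks at Sox1, 0 at Sox21 and 2 Ring1B peaks at Sox2. Merging peaks over gaps up to 1 kb gave 3 Ring1B peaks at Sox1 and 1 at Sox21, with widest intervals of 6055 bp at Sox1, 3028 bp at Sox2 and 6819 bp at Sox21. Within 1 kb, 2 Ring1B peaks had a Zrf1 peak, and the Sox2 pair was kept at a reciprocal overlap of 50% and with central 200 bp. Among genome windows with at least 1 peak of the same protein, as many Zrf1 peaks were held by 100% for Sox1, 100% for Sox2 and 38.6% for Sox21, and as many Ring1B peaks by 1.96%, 3.74% and 41.1%, because the background then leaves out empty windows. The Sox1 run split into 2 with gaps of at most 2 kb, and the Sox2 runs joined into 1 with gaps of at most 20 kb. No paired analysis was possible because each antibody had 1 library. Depth is unknown and limits every absence of a peak.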
